A study of Mus musculus with 6 samples.

Results

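The 70 genes described here encode collagens, a chaperone and enzymes that fold, modify and crosslink them, laminins, and fibrillins and fibulins. They also encode fibronectin and matricellular proteins, and the proteases and inhibitors that remodel the matrix. They are all protein-coding rows of the deposited table whose symbols match a fixed pattern of family names (for example Col, Lam, Fbn, Thbs, Plod, Mmp, Timp and Adamts followed by a number or letter), and they make up 70 of the 11604 genes in the table. RNA was sequenced from CT26, a colon carcinoma cell line of the BALB/c mouse, labelled as wild type and as tumor cells. In 3 libraries the cells had received 10 µM irinotecan (CPT-11) for 24 h, and in 3 libraries DMSO, the solvent. No treatment time is labelled for the DMSO libraries. Irinotecan is a prodrug of SN-38, which traps DNA topoisomerase I on DNA. The labels do not say if the 3 libraries of a group were cultured separately. The p-values therefore reflect differences among these libraries, which may be technical.

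Collagen chains are hydroxylated in the endoplasmic reticulum, assemble into triple helices with the help of a dedicated chaperone, and are crosslinked outside the cell by lysyl oxidases. Laminins and type IV collagen form the basement membrane under epithelia, while fibronectin, fibrillins and thrombospondins link cells to fibres and bind growth factors. Matrix metalloproteinases, ADAMs and ADAMTS enzymes cut these proteins or shed proteins from the cell surface, and the TIMPs inhibit them.

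Promoter windows of 4 members are shown because they carry comparisons made below: Col4a1 and Col4a2, which lie head to head on chromosome 8, and Mmp13 and Timp1, a collagenase and an inhibitor that moved in opposite directions. Each window runs from 250 bases before to 50 after the RefSeq start, on GRCm38.p6, a different build from the GRCm39 coordinates of the counts. Capitals mark matches to 3 motifs searched on both strands: the core promoter element TATAAA, the NF-Y element with the letters CCAAT, and the AP-1 site, spelled TGANTCA. The letters ATTGG are the NF-Y element read on the other strand, and no match overlaps another.
Col4a1, chr8:11312777-11313076, minus strand: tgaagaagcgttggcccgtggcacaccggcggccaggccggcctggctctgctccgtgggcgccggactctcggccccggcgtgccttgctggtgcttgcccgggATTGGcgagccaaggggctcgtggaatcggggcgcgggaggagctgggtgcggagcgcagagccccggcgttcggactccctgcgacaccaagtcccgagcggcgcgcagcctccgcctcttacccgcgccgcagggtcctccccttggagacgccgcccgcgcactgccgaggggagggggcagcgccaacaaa
Col4a2, chr8:11312555-11312854, plus strand: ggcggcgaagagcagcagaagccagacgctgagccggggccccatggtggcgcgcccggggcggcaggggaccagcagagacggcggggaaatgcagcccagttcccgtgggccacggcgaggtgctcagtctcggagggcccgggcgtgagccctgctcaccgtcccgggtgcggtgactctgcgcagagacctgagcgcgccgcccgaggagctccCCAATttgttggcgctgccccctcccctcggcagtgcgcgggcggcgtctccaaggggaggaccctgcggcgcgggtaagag
Mmp13, chr9:7272264-7272563, plus strand: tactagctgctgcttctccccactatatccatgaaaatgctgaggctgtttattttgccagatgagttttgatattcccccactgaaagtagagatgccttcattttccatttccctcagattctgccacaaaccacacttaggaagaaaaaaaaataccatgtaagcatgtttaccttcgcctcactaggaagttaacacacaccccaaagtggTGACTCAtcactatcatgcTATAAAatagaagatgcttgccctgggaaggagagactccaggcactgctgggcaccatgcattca
Timp1, chrX:20869916-20870215, plus strand: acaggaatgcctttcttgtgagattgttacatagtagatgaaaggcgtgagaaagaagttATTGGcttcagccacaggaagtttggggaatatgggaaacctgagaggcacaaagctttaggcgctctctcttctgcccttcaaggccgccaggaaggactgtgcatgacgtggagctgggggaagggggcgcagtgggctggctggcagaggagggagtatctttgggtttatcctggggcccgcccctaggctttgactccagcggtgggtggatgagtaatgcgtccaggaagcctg
The windows of Col4a1 and Col4a2 share 78 bases, read in opposite directions. Mmp13 holds an AP-1 match at positions -35 to -29 and a core element match at -16 to -11 relative to the start. Of the 3 motifs as spelled above, the Timp1 window holds an NF-Y match alone. Variants of these letters were not searched, so other AP-1 or core elements may be present. Of all 32851 windows in the RefSeq table, 13.6% hold the core element, 37.4% the NF-Y element and 7.81% the AP-1 site. The 57 windows found for 51 of the 70 matrix genes gave 14%, 35.1% and 5.26%, close to the shares of all windows.

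With irinotecan, 24 of the 70 matrix genes rose and 7 fell, and 39 did not pass the threshold (adjusted p under 0.05, edgeR's quasi-likelihood test with Benjamini-Hochberg adjustment over 11599 genes). The 31 genes that changed are 44.3% of the matrix genes, against 22.1% of all genes tested. By class the changed share ran from 22.2% for ADAMs to 75% for basement membrane and multiplexin collagens. The difference from the background lay in the rises: 34.3% of the matrix genes rose, against 11.8% of all genes, while 10% fell, against 10.3%, so the share of falls was close to that of the whole table. The median log2 fold change was 0.16 over the matrix genes and 0.00 over all genes. The median level was 44.5 CPM (TMM-normalized counts scaled to a common library size) for matrix genes and 37.7 CPM for all genes tested. The changes were mostly small. Rises ranged from 0.17 to 1.45 on the log2 scale with a median of 0.36, and falls from -0.13 to -0.60 with a median of -0.32. Regardless of sign, the median was 0.344 over the changed matrix genes and 0.289 over all genes that changed. At least 1.5-fold changes were seen in 6 matrix genes, a count not made over all genes. All 70 passed the filter on low counts. In 43 matrix genes (61.4%) the CPM ranges of the 2 groups were apart, against 37.1% of all genes. Irinotecan lay above DMSO in 32 of the 70 matrix genes, against 19.3% of all genes tested. It lay below in 11 of the 70, against 17.8%.

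Library totals were 17049072 to 17294496 counts with irinotecan and 16052326 to 16649571 in DMSO. When libraries were scaled by total counts alone, 66.1% of all calls were higher, against 53.5% with TMM, and the matrix genes then gave 30 higher and 5 lower. Matrix genes took 0.939%, 0.918% and 0.972% of the counts in irinotecan replicates 1 to 3, and 0.86%, 0.872% and 0.89% in DMSO replicates 1 to 3. Among markers of cell types, 0 of 5 endothelial, 1 of 8 haematopoietic, 3 of 8 fibroblast and mural and 3 of 8 epithelial markers were listed. The fibroblast and mural markers Pdgfra, Pdgfrb and Des summed to 38 to 39.1 CPM with irinotecan and 36.1 to 36.2 CPM in DMSO, and Dcn, Lum and Thy1 have no row. Des rose, at 2.18, 1.57 and 1.37 CPM with irinotecan and 0.628, 1.17 and 0.486 CPM in DMSO (log2 fold change 1.16, adjusted p = 0.0274). Pdgfra lay above DMSO in all irinotecan libraries without passing (0.25, adjusted p = 0.151), and Pdgfrb, the most abundant, had a log2 fold change of -0.02. The haematopoietic marker Cd68 rose, at 3.72 to 4.23 CPM with irinotecan and 2.01 to 3.07 CPM in DMSO (log2 fold change 0.76, adjusted p = 0.0181), and Ptprc has no row. The epithelial markers Cdh17, Krt18 and Krt20 summed to 87.3 to 98.6 CPM with irinotecan and 96.5 to 103 CPM in DMSO, with members moving in opposite directions. Cdh17 rose (log2 fold change 1.40, adjusted p = 0.00466), Krt18 fell (-0.23, adjusted p = 0.0246) and Krt20 did not pass (0.04, adjusted p = 0.762), and Epcam and Cdh1 have no row. Their part in the results was not tested. Every listed gene has a count above 0 in all libraries. Of 168 protein-coding symbols in GENCODE M21 that match the pattern, 70 have a row, and among those without one are Tnc, Lox, Loxl1, Loxl2, Fbn2, Col6a3, Mmp2, Mmp3, Mmp9 and Timp3.

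**Figure D1:**
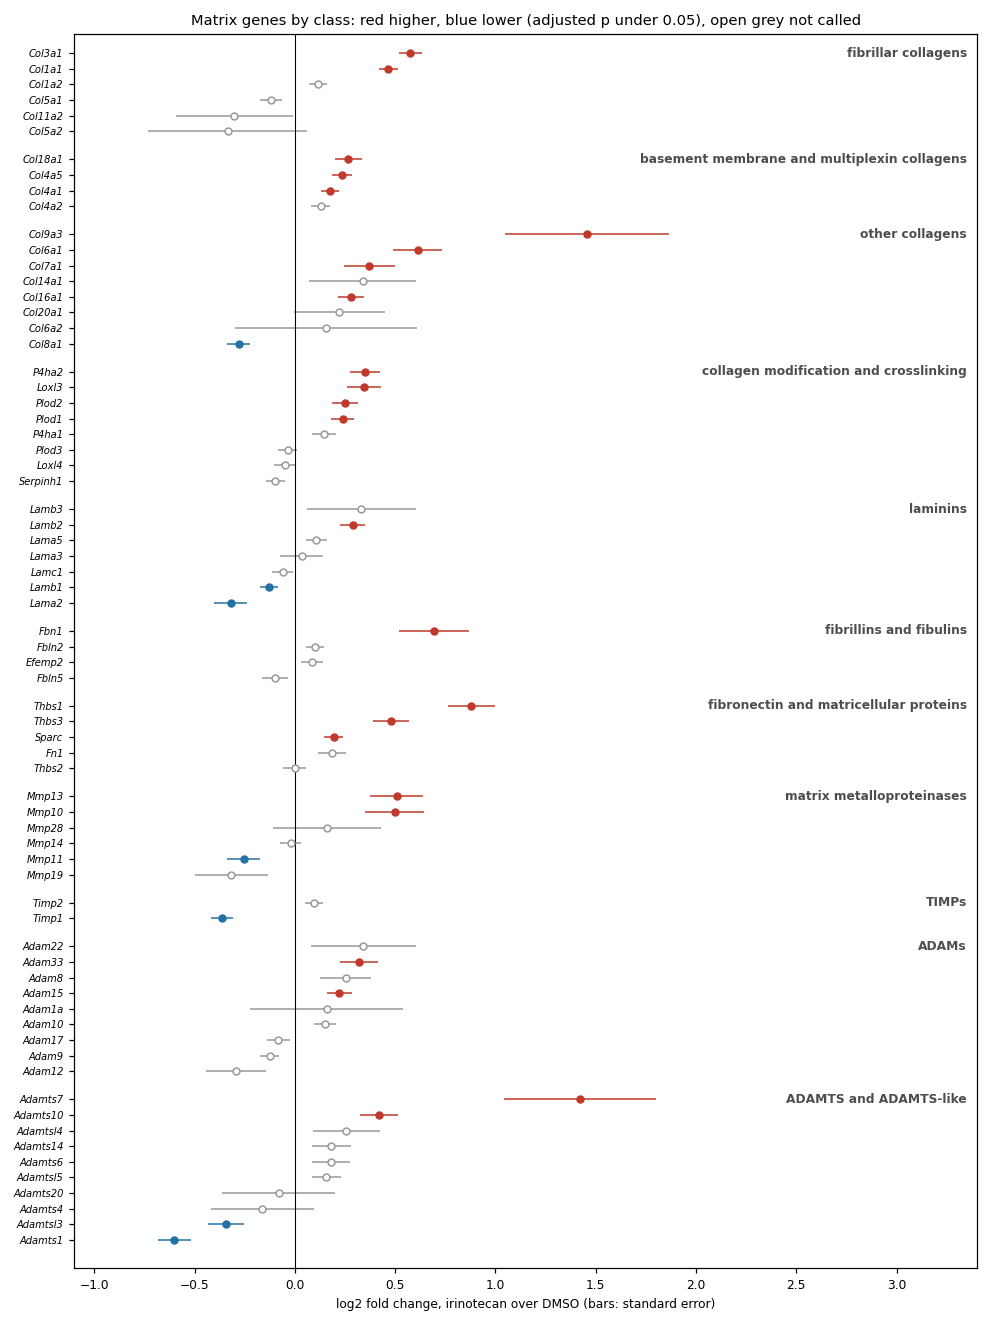
Log2 fold change of irinotecan over DMSO (x axis) for the matrix genes described, grouped by class; bars are standard errors, red and blue points passed the threshold as higher and lower, and open grey points did not. In red are 9 of 18 collagen chains and 4 of 8 genes of collagen modification and crosslinking (50% each, against 11.8% of all genes). Adamts1, at -0.60, lies farthest to the left.

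Among the fibrillar collagens, which form the banded fibres of connective tissue, 2 of 6 listed genes rose and 4 did not pass. Rises made up 33.3% of this class, against 11.8% of all genes tested. Col1a1 (ENSMUSG00000001506, chromosome 11, 94827050 to 94843868, GRCm39), the alpha 1 chain of type I collagen, had 234, 231 and 230 CPM in the irinotecan libraries and 170, 170 and 163 CPM in the DMSO libraries. Within each group its libraries lay within a few CPM of each other and the groups were far apart. Its log2 fold change was 0.47 ± 0.046 (SE, n = 3 per group, adjusted p = 2.35e-07). Col3a1 (ENSMUSG00000026043, chromosome 1, 45350698 to 45388866), the type III chain that often shares fibres with type I, had 86.8, 85.9 and 85.7 CPM with irinotecan and 57.6, 56.8 and 59.2 CPM in DMSO. It rose by 0.57 ± 0.057 on the log2 scale (adjusted p = 2.55e-07), and these are the smallest p-values of the 70. Both calls held under all 12 alternative settings.

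Col1a2 (chromosome 6, 4504814 to 4541544), the alpha 2 chain that pairs with Col1a1 in type I collagen, was the collagen with the most counts. It had 1534, 1488 and 1522 CPM with irinotecan and 1404, 1413 and 1383 CPM in DMSO, so all irinotecan libraries lay above all DMSO libraries. The log2 fold change of 0.11 ± 0.044 did not pass (adjusted p = 0.0713, 95% interval 0.02 to 0.21), and among the fits without a replicate term it did with DESeq2 (0.0416), limma-voom (0.049) and scaling by total counts (0.0178). Per length, as deposited FPKM, Col1a2 averaged 123 with irinotecan and 111.3 in DMSO, and Col1a1 35.6 with irinotecan and 25.3 in DMSO. The FPKM imply a gene length of 12.4 kb for Col1a2, against 5.35 kb for its longest coding transcript in GENCODE M21, and 6.57 kb for Col1a1, against 5.93 kb, so its level relative to Col1a1 depends on the gene lengths used. Col5a1, a regulator of fibre diameter, had 101, 103 and 107 CPM with irinotecan and 107, 114 and 116 CPM in DMSO (log2 fold change -0.12, adjusted p = 0.12). Col11a2 and Col5a2 were near 1 to 3 CPM with wide intervals, -0.91 to 0.30 and -1.16 to 0.49. Col5a2 lies 24.6 kb from Col3a1, and it stood at 0.958 CPM with irinotecan and 1.21 CPM in DMSO, while Col3a1 rose.

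All 4 listed chains of basement membrane and multiplexin collagens had a positive log2 fold change, and 3 rose (75%, against 11.8% of all genes). Col4a5 (chromosome X, 140258381 to 140472230), the chain mutated in Alport syndrome in humans, had 146, 145 and 158 CPM with irinotecan and 128, 124 and 130 CPM in DMSO. It rose by 0.23 ± 0.052 (adjusted p = 0.00252). Col18a1 (chromosome 10), the source of the fragment endostatin, had 57.1, 60.2 and 60.5 CPM with irinotecan and 46.5, 53.6 and 47.8 CPM in DMSO, a log2 fold change of 0.27 ± 0.068 (adjusted p = 0.00754). It overlaps Slc19a1 on the other strand, and without strand the reads of the pair cannot be told apart. Col4a1 and Col4a2, whose proteins assemble together as the main type IV network, had intervals that overlapped. Col4a1 (chromosome 8, 11248423 to 11362826) had 275, 279 and 275 CPM with irinotecan and 239, 250 and 247 CPM in DMSO. It rose by 0.17 ± 0.045 (adjusted p = 0.00885, and 0.0503 without DMSO replicate 1). Col4a2 (chromosome 8, 11362805 to 11499287) had 184, 174 and 179 CPM with irinotecan and 167, 161 and 164 CPM in DMSO, with a log2 fold change of 0.13 ± 0.048 that did not pass (adjusted p = 0.0584, 95% interval 0.03 to 0.23) and did when scaled by total counts (0.0218). The genes overlap by 22 bases at their starts, as the table gives them, and share the promoter bases printed above.

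Of the 8 other collagens, 4 rose and 1 fell (50% and 12.5%, against 11.8% and 10.3% of all genes tested). Col6a1 (chromosome 10, 76544626 to 76562002), a chain of the microfibrillar type VI collagen, had 14, 13.4 and 12.8 CPM with irinotecan and 8.48, 10.1 and 7.72 CPM in DMSO, a rise of 0.61 ± 0.12 (adjusted p = 0.00113). Its partner chain Col6a2 was near 1 CPM in both groups, at 0.961 ± 0.281 CPM with irinotecan and 0.857 ± 0.653 CPM in DMSO (SD, n = 3). Col16a1, a fibril-associated collagen, had 87.8, 80.1 and 86.3 CPM with irinotecan and 68.6, 75.8 and 64.7 CPM in DMSO and rose by 0.28 ± 0.065 (adjusted p = 0.00362). Col8a1 (chromosome 16, 57444621 to 57575100), a short-chain collagen of vessel walls and the cornea, was the collagen that fell. It had 118, 122 and 134 CPM with irinotecan and 141, 156 and 157 CPM in DMSO, a log2 fold change of -0.28 ± 0.058 (adjusted p = 0.00148), and the groups did not overlap. The remaining calls rest on fewer counts. Col7a1, the anchoring fibril collagen, rose by 0.37 ± 0.13 (adjusted p = 0.0404) at 11.8, 13.2 and 9.89 CPM with irinotecan and 8.79, 8.78 and 9.36 CPM in DMSO. That call was lost with DESeq2 (0.0758), with limma-voom (0.0603) and without any 1 library except irinotecan replicate 3 (0.0504 to 0.201). Col9a3, a cartilage collagen chain, had the largest log2 fold change of all 70, 1.45 ± 0.41 (adjusted p = 0.0142), at 1.49, 1.16 and 1.6 CPM with irinotecan and 0.377, 0.307 and 0.851 CPM in DMSO. It was lost without irinotecan replicate 1 (0.0542), DMSO replicate 1 (0.0528) or DMSO replicate 2 (0.0729).

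**Figure D2:**
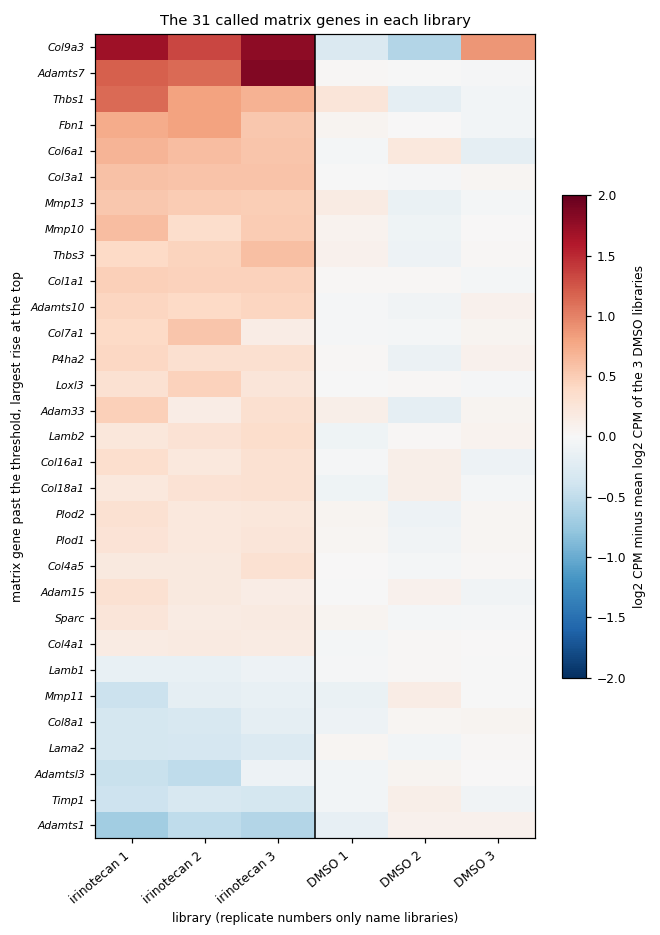
Each of the 31 matrix genes past the threshold (rows, largest rise at the top) in each of the 6 libraries (columns, irinotecan left of the line and DMSO right of it); colour gives log2 CPM minus the mean log2 CPM of the 3 DMSO libraries. All 31 rows separate the groups, with the widest spread among DMSO libraries in Col9a3.

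Of 8 genes that fold, modify and crosslink collagen, the chaperone Serpinh1 among them, 4 rose and 4 did not pass the threshold. Rises made up 50% of this class, against 11.8% of all genes tested. P4ha2 (chromosome 11, 53990921 to 54022491), a catalytic subunit of prolyl 4-hydroxylase, which stabilises the triple helix, had 44.1, 41.5 and 41.4 CPM with irinotecan and 33.9, 30.6 and 35.3 CPM in DMSO. It rose by 0.35 ± 0.076 (adjusted p = 0.00225). The other catalytic subunit, P4ha1, had a log2 fold change of 0.14 ± 0.059 that did not pass (adjusted p = 0.0887). Scaled by total counts, or without irinotecan replicate 2, the class gave 5 rises, P4ha1 being the added gene. Of the lysyl hydroxylases, which prepare collagen for crosslinks, Plod1 averaged 86.6 ± 2.12 CPM with irinotecan and 73.4 ± 3.06 CPM in DMSO (SD, n = 3 each), a rise of 0.24 (adjusted p = 0.00508). Plod2 averaged 61 ± 2.06 CPM with irinotecan and 51.3 ± 2.92 CPM in DMSO, a rise of 0.25 (adjusted p = 0.00885) that was lost without irinotecan replicate 1 (0.054) or DMSO replicate 2 (0.0534). Plod3, the most abundant of the 3 per length at 58.6 FPKM with irinotecan and 58.8 FPKM in DMSO, had a log2 fold change of -0.04 with a 95% interval of -0.13 to 0.06. Loxl3, a lysyl oxidase, had 28, 31.2 and 26.9 CPM with irinotecan and 22.6, 22.9 and 22.4 CPM in DMSO and rose by 0.34 ± 0.085 (adjusted p = 0.00622); it overlaps Htra2 on the other strand. Loxl4, the other listed lysyl oxidase, stood at 34 FPKM with irinotecan and 34.5 FPKM in DMSO (log2 fold change -0.05, 95% interval -0.16 to 0.06).

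Serpinh1, the collagen chaperone HSP47, was the most abundant matrix gene per length, at 274.7 FPKM with irinotecan and 287.7 FPKM in DMSO. It had 674, 658 and 663 CPM with irinotecan and 710, 749 and 675 CPM in DMSO, and although the groups did not overlap the log2 fold change of -0.10 ± 0.048 did not pass (adjusted p = 0.153), except without DMSO replicate 3 (0.0427). By FPKM the order after Serpinh1 was Timp1, Col1a2, Fn1 and Timp2, and 31 genes averaged at least 10 FPKM while 15 averaged under 1 FPKM. These levels depend on the gene lengths the authors used, which were 0.732 to 2.76 times the longest coding transcript in GENCODE M21 over the 70 genes.

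**Figure D3:**
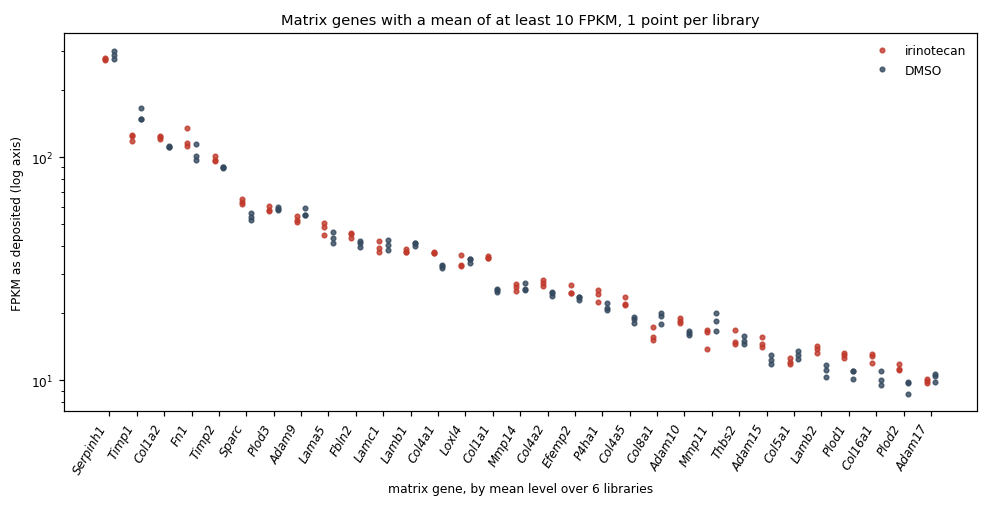
Deposited FPKM (log axis) of matrix genes that averaged at least 10 FPKM, ordered by their mean over the 6 libraries, with 1 point per library and irinotecan left of DMSO. Serpinh1 leads; Timp1 and Col1a1 are among the genes whose points separate by group, Timp1 lower and Col1a1 higher with irinotecan.

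Laminins, the heterotrimers of the basement membrane, moved in both directions: 1 of 8 rose, 2 fell and 5 did not pass. These shares are 12.5% higher and 25% lower, against 11.8% and 10.3% of all genes tested. Lamb2 (chromosome 9, 108356935 to 108367729), the beta 2 chain, had 79.7, 83 and 86.4 CPM with irinotecan and 63.7, 68.9 and 71.4 CPM in DMSO and rose by 0.29 ± 0.061 (adjusted p = 0.00201). Lamb1, the beta 1 chain, had 371, 371 and 380 CPM with irinotecan and 401, 418 and 409 CPM in DMSO and fell by 0.13 (adjusted p = 0.0392). The Lamb1 call did not hold when scaled by total counts (0.105) or without any 1 library (0.0503 to 0.127). Lama2 (chromosome 10, 26856032 to 27495754), the alpha 2 chain of muscle and nerve laminin, had 20.8, 21.1 and 21.8 CPM with irinotecan and 27.1, 25.5 and 26.9 CPM in DMSO and fell by 0.32 (adjusted p = 0.00829). Its call held under all 12 alternatives. Lama5 and Lamc1, which with a beta chain make the laminins of most adult epithelia, were the most abundant alpha and gamma chains per length. Lama5 averaged 48.1 FPKM with irinotecan and 43.8 FPKM in DMSO (log2 fold change 0.11, adjusted p = 0.159), and Lamc1 39.5 FPKM with irinotecan and 40.4 FPKM in DMSO (-0.06, adjusted p = 0.438). Lama3 and Lamb3, alpha and beta chains of epithelial laminin, had log2 fold changes of 0.03 and 0.33, and neither passed the threshold.

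Among fibrillins and fibulins, which build elastic microfibrils, 1 of 4 rose (25% changed, against 22.1% of all genes tested). Fbn1 (ENSMUSG00000027204, chromosome 2, 125142514 to 125349913), fibrillin-1, had 5.92, 6.21 and 5.15 CPM with irinotecan and 3.71, 3.56 and 3.41 CPM in DMSO. It rose by 0.69 ± 0.18 (adjusted p = 0.00703) and kept its call under all 12 alternatives. The more abundant Fbln2 averaged 283 ± 7.76 CPM with irinotecan and 264 ± 6.33 CPM in DMSO (SD, n = 3), a log2 fold change of 0.10 ± 0.046 (adjusted p = 0.124, and 0.0456 when scaled by total counts). Efemp2 and Fbln5, fibulins needed for elastic fibre assembly, had 95% intervals of -0.03 to 0.20 and -0.23 to 0.03.

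Of fibronectin and the matricellular proteins, 3 of 5 rose (60%, against 11.8% of all genes tested). Thbs1 (ENSMUSG00000040152, chromosome 2, 117942357 to 117957614), thrombospondin 1, an inhibitor of angiogenesis and an activator of latent TGF-beta, had 46.1, 36.9 and 34.3 CPM with irinotecan and 24.9, 18.5 and 20.4 CPM in DMSO. Irinotecan replicate 1 stood highest, and the lowest irinotecan library was still above the highest DMSO library. Its log2 fold change was 0.88 ± 0.12 (adjusted p = 7.64e-05). Thbs3 (chromosome 3, 89122487 to 89134144) had 24.4, 25 and 27.9 CPM with irinotecan and 19.5, 17.1 and 18.7 CPM in DMSO and rose by 0.48 ± 0.091 (adjusted p = 0.000698); it overlaps Mtx1 on the other strand over its whole length. Thbs2, the most abundant of the listed thrombospondins, had 107 CPM in each group, with a 95% interval of -0.12 to 0.12. Sparc, a collagen-binding glycoprotein, had 245, 232 and 236 CPM with irinotecan and 215, 203 and 205 CPM in DMSO and rose by 0.19 ± 0.047 (adjusted p = 0.00542). Fn1 (chromosome 1, 71624679 to 71692359), fibronectin, had 1336, 1298 and 1560 CPM with irinotecan and 1145, 1209 and 1337 CPM in DMSO. The groups overlapped, and the log2 fold change of 0.18 ± 0.069 did not pass (adjusted p = 0.0707). Among the fits without a replicate term it passed with DESeq2 (0.0488), with limma-voom (0.0489), without irinotecan replicate 2 (0.0326) and without DMSO replicate 3 (0.0219).

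Of 6 listed matrix metalloproteinases 2 rose and 1 fell (33.3% and 16.7%, against 11.8% and 10.3% of all genes tested). Mmp13 (ENSMUSG00000050578, chromosome 9, 7272514 to 7283331), a collagenase, had 10, 9.81 and 9.72 CPM with irinotecan and 7.72, 6.32 and 6.75 CPM in DMSO, a rise of 0.51 ± 0.13 (adjusted p = 0.00885) that held under all 12 alternatives. Mmp10, stromelysin 2, lies 219 kb away on the same chromosome. It had 8.1, 6.79 and 7.55 CPM with irinotecan and 5.59, 4.97 and 5.35 CPM in DMSO and rose by 0.50 ± 0.15 (adjusted p = 0.0208), a call lost without irinotecan replicate 1 (0.0991), irinotecan replicate 3 (0.0503) or DMSO replicate 2 (0.0733). Mmp11, stromelysin 3, had 38.2, 45.5 and 46.2 CPM with irinotecan and 46.7, 56.9 and 51.3 CPM in DMSO and fell by 0.25 (adjusted p = 0.0301). That call did not hold when scaled by total counts (0.0537), without irinotecan replicate 1 (0.195) or without DMSO replicate 2 (0.169), and Mmp11 overlaps Chchd10 on the other strand. Mmp14, the membrane-bound enzyme that activates other metalloproteinases, was the most abundant of them per length, at 26.3 FPKM with irinotecan and 26.1 FPKM in DMSO. Its log2 fold change was -0.02, with a 95% interval of -0.13 to 0.08, and its sign changed with the scaling.

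The 2 listed TIMPs differed. Timp1 (ENSMUSG00000001131, chromosome X, 20736405 to 20740974), a secreted inhibitor of most metalloproteinases, had 104, 111 and 109 CPM with irinotecan and 133, 151 and 132 CPM in DMSO. All irinotecan libraries were below all DMSO libraries. It fell by 0.36 on the log2 scale, with an SE of 0.057 (adjusted p = 0.000103), and kept its call under all 12 alternatives. Timp2, which also takes part in the activation of pro-MMP2 with Mmp14, had 391, 376 and 371 CPM with irinotecan and 356, 359 and 350 CPM in DMSO. Its log2 fold change of 0.09 ± 0.045 did not pass (adjusted p = 0.142), and did when scaled by total counts (0.046). Timp2 overlaps Cep295nl on the same strand, 1 of 15 matrix genes that overlap another listed gene; among those named, Plod3, Col5a1, Efemp2 and Adam17 are others.

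Of 9 ADAMs, a family that includes membrane proteases that shed cell surface proteins, 2 rose and 7 did not pass. The changed share, 22.2%, was close to the 22.1% of all genes tested. Adam15 averaged 89.8 ± 5.04 CPM with irinotecan and 77.1 ± 4.21 CPM in DMSO (SD, n = 3), a rise of 0.22 (adjusted p = 0.0128, and 0.0959 without irinotecan replicate 1). Adam33 averaged 33 ± 3.82 CPM with irinotecan and 26.5 ± 2.73 CPM in DMSO, a rise of 0.32 (adjusted p = 0.019) that was lost without irinotecan replicate 1 (0.143) or DMSO replicate 2 (0.106). Adam9, the most abundant ADAM per length at 52.8 FPKM with irinotecan and 56.5 FPKM in DMSO, had a log2 fold change of -0.13 ± 0.047 (adjusted p = 0.0595). The main sheddases Adam10 and Adam17 had log2 fold changes of 0.15 (adjusted p = 0.054) and -0.08 (adjusted p = 0.341), and Adam10 passed when scaled by total counts (0.0234). Adam10 had 89.8, 87.7 and 92.6 CPM with irinotecan and 81.1, 80.4 and 81.9 CPM in DMSO, with no overlap of the groups.

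Of 10 ADAMTS and ADAMTS-like genes, secreted proteases with thrombospondin repeats and their relatives without a catalytic domain, 2 rose and 2 fell. These shares are 20% higher and 20% lower, against 11.8% and 10.3% of all genes tested. Adamts1 (ENSMUSG00000022893, chromosome 16, 85590715 to 85600001), which cuts the proteoglycans versican and aggrecan, had 25, 28.3 and 26.9 CPM with irinotecan and 36, 42.7 and 42.9 CPM in DMSO. It fell by 0.60 on the log2 scale, with an SE of 0.084 (adjusted p = 2.87e-05), the largest fall of the 70, and the groups were well apart. Adamtsl3 had 27.2, 26 and 34.4 CPM with irinotecan and 35.8, 38.3 and 37.1 CPM in DMSO and fell by 0.34 (adjusted p = 0.0103). It did not pass without irinotecan replicate 1 (0.0687) or 2 (0.0724). Adamts10, a fibrillin-binding member, had 19.9, 19.5 and 19.9 CPM with irinotecan and 14.6, 14.1 and 15.8 CPM in DMSO and rose by 0.42 ± 0.094 (adjusted p = 0.00297). Adamts7 rose by 1.42 ± 0.38 (adjusted p = 0.0103) at 1.264, 1.219 and 2.001 CPM with irinotecan and 0.565, 0.552 and 0.547 CPM in DMSO. It was lost without irinotecan replicate 3 (0.0688), and it overlaps Tbc1d2b on the other strand. Adamtsl5, the most abundant of this class per length, averaged 9.38 FPKM with irinotecan and 8.25 FPKM in DMSO (log2 fold change 0.16, adjusted p = 0.133).

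A second list held 92 matrix genes outside the 70, of which 49 had a row. Of these 18 rose and 4 fell (44.9% changed, against 22.1% of all genes), with a median log2 fold change of 0.09. Proteoglycans gave 5 rises and 1 fall among 9 listed (55.6% and 11.1%, against 11.8% and 10.3% of all genes tested). Agrn, agrin, had 100, 84 and 98.6 CPM with irinotecan and 66.8, 69.4 and 73.7 CPM in DMSO and rose by 0.43 ± 0.067 (adjusted p = 0.000101). Hspg2, perlecan, which like agrin is a heparan sulfate proteoglycan of the basement membrane, had 253, 235 and 274 CPM with irinotecan and 198, 200 and 210 CPM in DMSO and rose by 0.33 ± 0.054 (adjusted p = 0.000156). The cell surface glypican Gpc1 had a log2 fold change of -0.15 (adjusted p = 0.0237). It did not pass when scaled by total counts or without any 1 library except DMSO replicate 3 (0.0587 to 0.0987).

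Other matrix glycoproteins gave 5 rises and 1 fall among 16 (31.2% and 6.25%, against 11.8% and 10.3% of all genes tested). Tnxb, tenascin X, had 64.4, 60.7 and 65.7 CPM with irinotecan and 37.9, 41.9 and 41.6 CPM in DMSO and rose by 0.65 ± 0.067 (adjusted p = 3.73e-07). Emilin1, an elastic fibre glycoprotein, rose by 0.74 ± 0.17 (adjusted p = 0.00365). Ltbp1, which holds latent TGF-beta in the matrix, had 275, 305 and 309.5 CPM with irinotecan and 338, 371 and 377 CPM in DMSO and fell by 0.29 (adjusted p = 0.000613). Genes of procollagen folding and processing and other crosslinkers gave 4 rises and 2 falls among 15 (26.7% and 13.3%). Bmp1, the procollagen C-proteinase, had 66.4, 68.1 and 67.4 CPM with irinotecan and 54.1, 55.5 and 51.4 CPM in DMSO and rose by 0.33 ± 0.061 (adjusted p = 0.00062). Tgm2, transglutaminase 2, rose by 0.43 ± 0.088 (adjusted p = 0.00151). Mia2, a factor of procollagen export, fell by 0.21 (adjusted p = 0.00597), and Furin, a proprotein convertase, fell by 0.21 (adjusted p = 0.0107, and 0.0739 without irinotecan replicate 1 or 0.0507 without DMSO replicate 2). Protease regulators and hyaluronan enzymes gave 4 rises among 9 (44.4%, against 11.8% of all genes tested). Hpse, heparanase, rose by 0.22 and Cemip2, a transmembrane protein linked to hyaluronan breakdown, by 0.40. Both calls were lost without irinotecan replicate 1 (adjusted p = 0.138 and 0.114) or without DMSO replicate 3 (0.052 and 0.0962).

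Because related genes moved by different amounts, ratios within a library were compared for 8 pairs chosen after their values were seen. A ratio within a library does not depend on scaling between libraries. An exact permutation test of 3 against 3 libraries cannot go below p = 0.1 two-sided, so no pair can pass 0.05. Choosing pairs by their values also favours separated groups, so the ratios below are descriptions and their p-values lend no support. The FPKM ratio of Col1a1 over Col1a2 was 0.289, 0.294 and 0.287 with irinotecan and 0.229, 0.228 and 0.224 in DMSO, a log2 difference of 0.35. Col3a1 over Col1a2 was 0.0716, 0.0731 and 0.0713 with irinotecan and 0.0519, 0.0509 and 0.0542 in DMSO. In both pairs the groups were separated by many times the spread within a group, with the smallest exact permutation p the design allows, 0.1, and 0.133 adjusted over the 8 pairs. Lamb2 over Lamb1 was 0.362 ± 0.0107 with irinotecan and 0.271 ± 0.0132 in DMSO (SD, exact permutation, n = 3). Thbs1 over Thbs2 was 0.524, 0.412 and 0.34 with irinotecan and 0.271, 0.204 and 0.211 in DMSO. Mmp13 over Timp1 was 0.0304 ± 0.00144 with irinotecan and 0.0167 ± 0.00265 in DMSO, a log2 difference of 0.87, and Timp1 over Timp2 was 1.25 ± 0.0733 with irinotecan and 1.71 ± 0.109 in DMSO. These 4 pairs also stood at p = 0.1 in the exact permutation test, an outcome that their choice made likely. By contrast Col4a1 over Col4a2 was 1.32, 1.42 and 1.36 with irinotecan and 1.27, 1.37 and 1.33 in DMSO, with overlapping groups (exact permutation p = 0.5). Col6a1 over Col6a2 ranged from 20 to 32.6 with irinotecan and from 9.28 to 51.3 in DMSO (exact permutation p = 0.8), at the low counts of Col6a2.

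**Figure D4:**
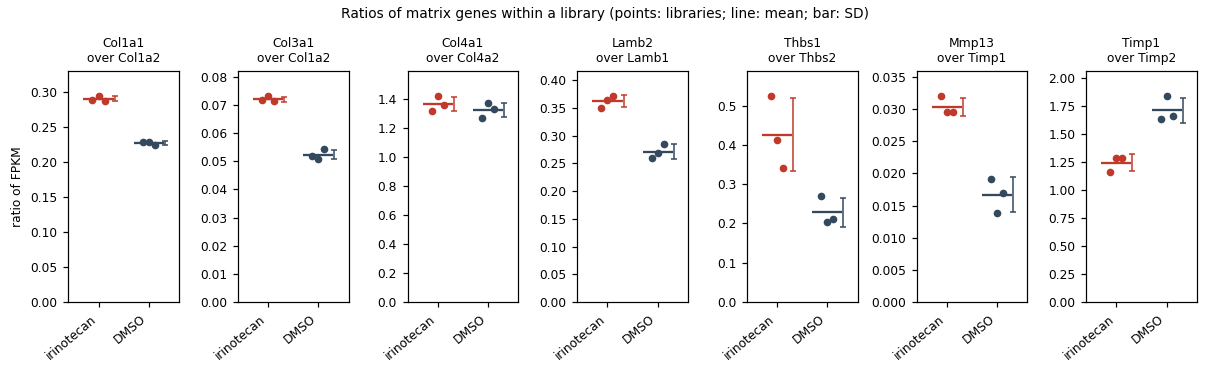
Ratio of the FPKM of paired matrix genes within each library (y axis from 0, 1 panel per pair), irinotecan left of DMSO; points are libraries, lines the mean and bars the SD of 3 libraries. The groups separate in every panel except Col4a1 over Col4a2; Col6a1 over Col6a2 is not drawn.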

How the data were processed

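Counts and FPKM values were deposited by the authors for 11604 genes in 6 libraries. Per the file headers, a whole-number count and an FPKM value stand beside each gene for each library. The authors' deposited table adds p-values, raw and adjusted, and log2 fold changes, whose sign runs opposite to irinotecan over DMSO in the counts; none of these folds is printed. Per the submitters' processing notes, the build was GRCm39 and the tools included edgeR 3.24.3, DESeq2 1.22.1, HISAT2 2.1.0 and featureCounts 1.6.2. Roles of the tools, strandedness and RNA selection: not given in the sources used here. The design text mentions duplicates, but 3 libraries per group are labelled. In the deposited results of the authors, 32 matrix genes have an adjusted p under 0.05, and 30 of these were also called here.

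The test used edgeR 4.0.16 (R 4.3.3): filterByExpr, which kept 11599 genes, TMM, glmQLFit (robust) and glmQLFTest, Benjamini-Hochberg over all genes tested, and a threshold of 0.05. CPM are TMM-normalized; standard errors divide the log2 fold change by the root of the F statistic. FPKM were used for levels between genes and for ratios. Scripts were tested on simulated data. Replicate libraries were distinct (chi-square over degrees of freedom 4.24 to 6.47 within groups). Total counts set the precision of low genes. The 12 alternatives were other scalings, no filter, DESeq2 1.42.0, limma-voom (limma 3.58.1), a replicate block and leaving out each library.

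The text names the 5 marker genes Col1a1, Col3a1, Fbn1, Mmp13 and Timp1, all matrix genes past the threshold, the member of each class with the highest FPKM, and up to 2 higher and 2 lower genes of each further list. Others were chosen after their values were seen. The members and lists were chosen with earlier results of these data known. A matrix gene counted among the members is not reported here by name.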

Additional observations from a re-analysis of the deposited data

How the results depend on the processing

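Of the 31 matrix genes past the threshold, 20 kept their call and direction under all 12 alternatives, and 11 lost it under at least 1. The number of matrix genes higher was 24 to 25 with size factors, no filter, DESeq2 or limma-voom, 30 with total counts and 32 with a replicate block; the number lower was 7, 5 and 10. Scaled by total counts alone, laminins lower numbered 1, fibrillins and fibulins higher 2, metalloproteinases lower 0 and TIMPs higher 1, and the log2 fold change of Mmp14 was 0.00881. The labels do not say if replicate numbers pair the libraries, and these correlations do not settle it. The deviations of same-numbered libraries correlated at 0.123, 0.0397 and 0.0846, and those of other pairs at -0.126 to 0.0347. Each library thus correlated best with its own number. With the replicate block 3628 genes changed, against 2559, with fibrillar collagens lower 1, collagen modification lower 1, laminins higher 2, fibrillins and fibulins higher 2, TIMPs higher 1 and ADAMs lower 1. Named genes that passed with the block but not in the edgeR test without it included Fn1 (adjusted p = 2.63e-05, edgeR), Col1a2 (0.00552) and Adam9 (0.00708). Others were Col4a2 (0.0102), Adam10 (0.0173), Lama5 (0.0224), Fbln2 (0.03), Serpinh1 (0.0307) and Timp2 (0.0363). Collagen modification genes higher numbered 5 with the block, P4ha1 being the added one. The fibrillar collagen counted as lower with the block is not in this list.

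Leaving out 1 library gave 1393 to 2362 changed genes, 18 to 25 matrix genes higher and 4 to 7 lower; the lowest counts came without irinotecan replicate 1. By class the ranges were 2 to 3 basement membrane and multiplexin collagens higher and 2 to 4 other collagens higher. Collagen modification genes gave 3 to 5 higher and 0 to 1 lower. Laminins lower numbered 1 to 1, and fibronectin and matricellular genes higher 3 to 4. Metalloproteinases gave 1 to 2 higher and 0 to 2 lower, ADAMs 0 to 2 higher, and ADAMTS 1 to 2 higher and 1 to 2 lower. Other matrix genes gave 10 to 17 higher and 2 to 4 lower. The log2 fold change of Mmp14, -0.02 with all libraries, ranged from -0.0479 without irinotecan replicate 2 to 0.0166 without DMSO replicate 2, and was 0.00508 without irinotecan replicate 1. The cause of these shifts was not tested. The 3 libraries per group limit what can be seen: genes near 1 CPM, such as Col5a2 and Col6a2, have intervals wider than 1 log2 unit.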
